A study of Homo sapiens with 16 samples.

Results

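The genes described here build, check and drive mitosis: the centromere and kinetochore, the cyclins and kinases of cell division, the spindle, the condensins and the machinery of cytokinesis. They were chosen by gene symbol, as 43 listed genes, of which 38 had a probe among the 15240 symbols on the array. The list was drawn up with earlier results of these data known. Shares of members set beside shares of all probes therefore describe the list and do not test it. Members without a probe were CDC20, CDC25C, MAD2L1, PTTG1 and TOP2A. CENPE was the 1 kinesin on the list. The array's annotation uses older symbols, so CDC2 stands for CDK1, the kinase that drives entry into mitosis, and DLG7 for DLGAP5, a spindle protein. The 38 genes had 43 probes. Of these, 37 probes of 34 genes were above 0 in all 16 samples and could be tested, and 18 of the 37 were brighter than the median tested probe. BIRC5, CENPA and SMC4 had 2 tested probes each.

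RNA came from HepG2, a human liver tumour line that divides in culture and keeps many functions of hepatocytes. All cells were held in serum-free medium for 7 days. They received no fatty acid (control) or 100 µM of oleic acid, elaidic acid or stearic acid, with 4 biological replicates per group. Oleic and elaidic acid are the cis and trans forms of one unsaturated fatty acid, and stearic acid is the saturated acid with the same number of carbons. The series, by its title, sought markers for intake of elaidic acid, a trans fat of the diet. Each sample was amplified, labelled with Cy5 and hybridised on 1-colour arrays, in 2 technical replicates that were deposited as 1 value. The 4 groups are all from 1 tumour line, which limits them as a model of liver.

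The labels give each array a number, and these numbers form 2 separate ranges, named slide series A and slide series B here. Of the 10 samples in series A, 4 were control, 4 oleic acid and 2 elaidic acid (replicates 2 and 4). Of the 6 in series B, 4 were stearic acid and 2 elaidic acid (replicates 1 and 3). Stearic acid therefore shares no slide series with control or oleic acid, and fatty acid and slide series cannot be told apart in those comparisons except through the elaidic acid samples. The median intensity of a sample ran from 19.95 to 72.8 in series A and from 45.8 to 76.1 in series B. The label of a liver line was checked on 16 probes of hepatocyte genes, whose mean log2 level per sample was between 10.4 and 12.5. Among them AFP, the fetal serum protein of liver tumours, had a mean of 13.04 over all samples.

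As background, genes of mitosis are switched on together late in the cell cycle and are low in cells that have stopped dividing. Many are held down in resting cells by the DREAM complex and activated by B-MYB and FOXM1 in dividing ones. These complexes reach the promoters through a short element called the cell cycle genes homology region (CHR), often downstream of CCAAT boxes bound by NF-Y. In bulk RNA a larger share of dividing cells and more of a transcript in each cell cannot be told apart.

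Promoters of 4 members are printed to show how this arrangement looks in a gene that rose clearly with elaidic acid (CCNB2), in another without CCAAT letters (CENPE), in a gene with a large rise that depended on the slide series (CENPA), and in a member that was not called (ANLN). Each is the 250 bases upstream of the annotated start, 5′ to 3′ on the gene's strand, from RefSeq on GRCh38.p14. CCNB2 lies at chr15:59104896-59105145 on the plus strand, CENPE at chr4:103198344-103198593 on the minus strand, CENPA at chr2:26785806-26786055 on the plus strand and ANLN at chr7:36389612-36389861 on the plus strand. Capitals mark CHR letters (TTTGAA, its complement TTCAAA, or TTTAAA) and CCAAT or its complement ATTGG.
CCNB2: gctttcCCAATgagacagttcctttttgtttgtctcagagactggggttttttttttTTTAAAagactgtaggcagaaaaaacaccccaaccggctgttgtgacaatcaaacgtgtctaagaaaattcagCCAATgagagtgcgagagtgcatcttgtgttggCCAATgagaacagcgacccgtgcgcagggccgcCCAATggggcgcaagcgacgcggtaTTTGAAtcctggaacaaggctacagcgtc
CENPE: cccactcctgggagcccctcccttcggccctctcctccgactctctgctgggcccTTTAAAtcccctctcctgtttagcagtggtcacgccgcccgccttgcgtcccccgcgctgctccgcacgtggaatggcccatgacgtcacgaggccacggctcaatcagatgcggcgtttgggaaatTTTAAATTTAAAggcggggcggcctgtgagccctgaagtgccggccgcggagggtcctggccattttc
CENPA: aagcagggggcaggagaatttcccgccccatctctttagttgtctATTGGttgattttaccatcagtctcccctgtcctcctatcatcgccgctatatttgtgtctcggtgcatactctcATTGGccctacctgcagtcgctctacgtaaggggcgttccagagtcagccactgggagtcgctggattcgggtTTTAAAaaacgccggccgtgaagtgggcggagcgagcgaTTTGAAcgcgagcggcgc
ANLN: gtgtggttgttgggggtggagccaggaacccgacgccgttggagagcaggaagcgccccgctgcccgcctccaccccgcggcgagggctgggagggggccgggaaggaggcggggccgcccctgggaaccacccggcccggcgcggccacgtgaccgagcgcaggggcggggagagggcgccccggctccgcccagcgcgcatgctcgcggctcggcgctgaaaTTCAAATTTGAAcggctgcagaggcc

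In CCNB2 the CHR letters TTTGAA begin 29 bases upstream of the start, below 4 CCAAT matches that begin 54, 87, 120 and 244 bases upstream. CENPA has TTTGAA at 18 and TTTAAA at 57 bases upstream, and ATTGG at 130 and 205 bases upstream. CENPE has no match to TTTGAA or CCAAT in this window and 3 matches to TTTAAA, of which the nearest begins 62 bases upstream. In ANLN, TTCAAA and TTTGAA stand side by side at 26 and 20 bases upstream, with no CCAAT match.

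Of the 43 listed genes, 37 had a promoter in the RefSeq table, taken from 250 bases upstream to 50 downstream of the start. TTK, AURKA, BIRC5, UBE2C, TPX2 and FAM83D had no entry there. CHR letters on either strand were present in 29 of the 37 (78.4%), against 24% of all 35116 promoters of the same length. TTTGAA alone, on either strand, was present in 26 (70.3%) against 15.2%. CCAAT on either strand was present in 29 (78.4%) against 34.6%, and 24 members (64.9%) held both motifs against 9.27%. A match to one motif may overlap a match to the other, and each was counted by itself. A match is a description of letters and not of a bound site.

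Counts by call are as follows. Of the 12 genes called with elaidic acid against control, 10 had a promoter in the table, and 8 of those held CHR letters, 8 held CCAAT and 7 held both. Of the 22 tested genes that were not called, 18 had a promoter, and 15, 14 and 12 of those did. OIP5 and CDCA5, both called, had no CHR letters in the window.

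With elaidic acid, mitotic genes were higher than in control. Of the 37 tested probes 30 had a higher mean and 12 passed the test, all upward, among them CCNB2 (5.75-fold) and ASPM (5.03-fold). CENPA, CEP55 and OIP5 had log2 changes of 2.93, 2.80 and 2.73 over dim controls, in or near the range where probes such as BUB1 scattered around 0, so no fold is given for them. With an offset of 16 added to every value, these changes were 2.28, 1.74 and 1.48, and all 3 were still called. Control means of FAM83D (3.73), CCNA2 (3.55), PRC1 (3.76) and the dimmer SMC4 probe (2.95) were below that of this CENPA probe (4.43). The same limit holds for their changes. A probe was called when limma's p, adjusted by the Benjamini-Hochberg method over all 22939 tested probes, was under 0.05, and 0.323% of all probes were called in this comparison. The median log2 change was 1.504 over the members and -0.10 over all probes, or 0.94 over the members with the offset of 16, and 24 members had a log2 difference of 1 or more.

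These values compare 4 elaidic acid samples from both slide series with 4 control samples from series A. Within series A, where 2 elaidic acid samples stand against 4 controls, 34 of 37 members were higher, the median being 1.26 against 0.02 over all probes, and 22 had a difference of 1 or more. There CCNB2 and CENPE were called, when 0.0392% of all probes were, and 25 members had an unadjusted p under 0.05. For each of the 12 called probes all 4 elaidic acid samples, and so also the 2 of series A, were above every control sample. These probes were picked by the test on the same values, so this is no separate support. Every elaidic acid sample lay above every control sample for 21 of 37 members (3.82% of all probes), and within series A for 24 (7.17% of all probes). The call count was 7 without elaidic acid replicate 1, 25 with array weights, and 0 when the fit held only the 2 groups or used no normalisation, although 24 and 26 members then had an unadjusted p under 0.05.

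**Figure D1:**
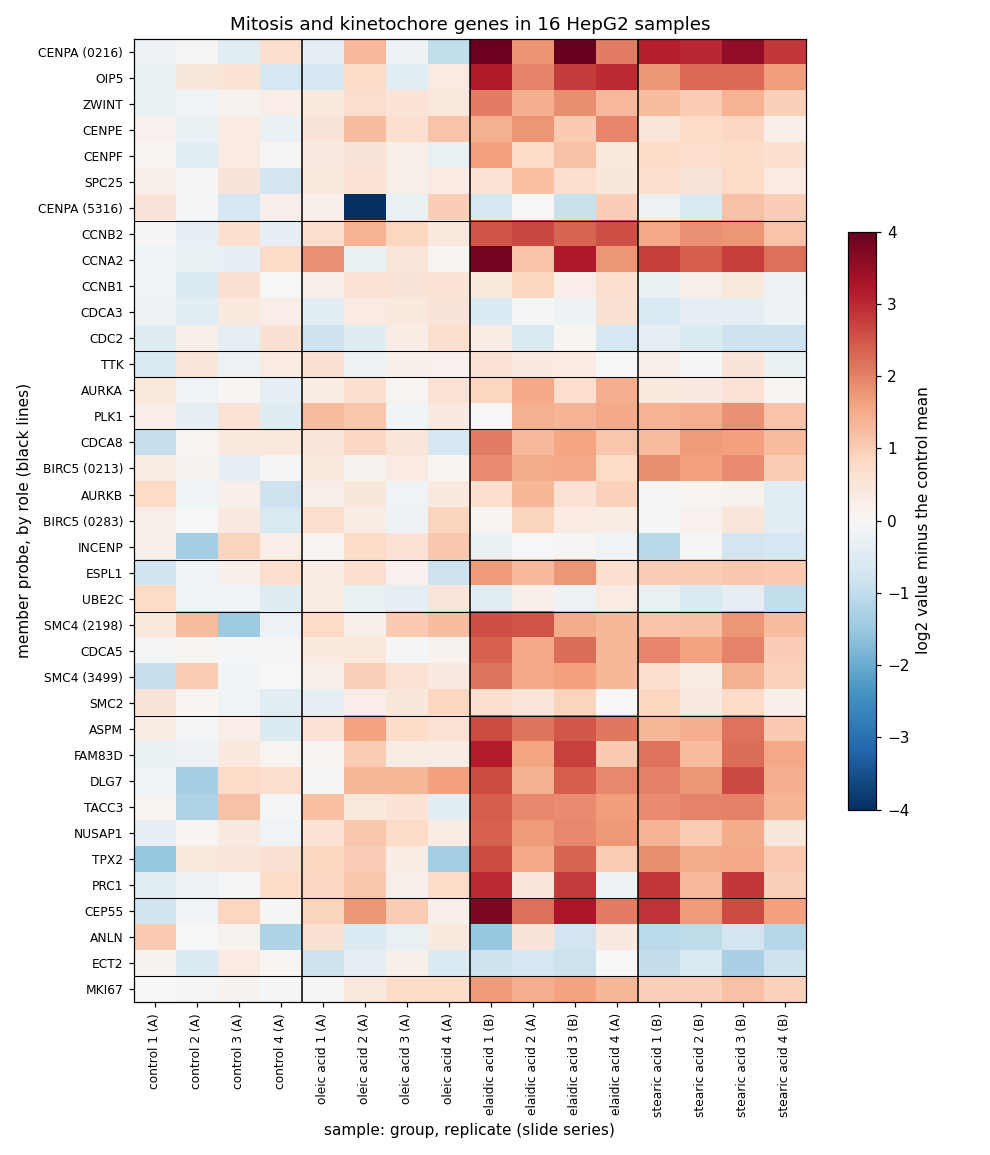
Log2 value of each of the 37 member probes (rows, grouped by role between black lines, with the last 4 digits of the probe where a gene has several) in each of the 16 samples (columns, with the slide series in brackets), minus the probe's control mean. Red is above and blue below the control mean, the colours end at 4 log2 units either way, and 1 oleic acid value of the dimmer CENPA probe lies beyond. Most rows are red in all 4 elaidic acid columns and paler in the oleic acid columns. The rows with an elaidic acid mean below control are ANLN, ECT2, CDC2, CDCA3, UBE2C, INCENP and the dimmer CENPA probe.

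Values by sample are normalised log2 intensity, in the order of replicates 1 to 4, so elaidic acid values 1 and 3 are from series B and the others from series A. They depend on the probe, so levels are compared between samples and never between genes. Errors of a log2 change are standard errors from the fit (n = 4 per group).

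Among the cyclins and the genes that control CDK1, CCNB2 rose most clearly. CCNB2, the cyclin B2 partner of CDK1, read 6.77, 6.39, 7.38 and 6.41 in control, 7.46, 8.11, 7.59 and 7.17 in oleic acid, 9.27, 9.40, 9.07 and 9.30 in elaidic acid and 8.25, 8.57, 8.50 and 7.87 in stearic acid samples. All elaidic acid samples, of either slide series, were above all stearic acid samples, which were above all controls. CCNB2 rose by 2.52 ± 0.27 against control (adjusted p = 0.00189), and the rise within series A was 2.62 ± 0.33 (adjusted p = 0.0153). CCNA2, the cyclin A2 that acts from replication to early mitosis, read 3.39, 3.29, 3.24 and 4.29 in control, 5.39, 3.27, 4.02 and 3.62 in oleic acid, 7.39, 4.68, 6.76 and 5.31 in elaidic acid and 6.31, 5.98, 6.30 and 5.74 in stearic acid samples. Its elaidic acid samples of series B were higher than those of series A, and the log2 change against control was 2.49 over all samples and 1.45 within series A, not called in either. CCNB1, the other B-type cyclin of the list, had a change of 0.55, CDCA3, which promotes removal of the CDK1 inhibitor WEE1, one of -0.05, and CDC2, the kinase itself, one of -0.23. None of these 3 was called. For CDC2 both series A elaidic acid samples were below all 4 controls, the 1 member of which this held.

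Centromere and kinetochore genes held 4 of the 12 calls. CENPA, the histone H3 variant that marks centromeres, read 4.24, 4.37, 4.02 and 5.09 in control, 4.04, 5.74, 4.22 and 3.44 in oleic acid, 8.35, 6.22, 8.41 and 6.47 in elaidic acid and 7.55, 7.46, 7.97 and 7.27 in stearic acid samples on the brighter of its 2 probes. The elaidic acid samples were above all control and oleic acid samples, those of series B above all stearic acid samples and those of series A below them. The rise against control was 2.93 ± 0.53 (adjusted p = 0.0289), and 1.91 ± 0.48 within series A (adjusted p = 0.249). The second CENPA probe was among the dimmest 2.14% of tested probes and read 3.38, 2.81, 2.19 and 3.06 in control, 3.05, -1.89, 2.57 and 3.86 in oleic acid, 2.15, 2.83, 1.98 and 3.85 in elaidic acid and 2.62, 2.28, 4.02 and 3.83 in stearic acid samples. Its groups overlapped, its change was -0.16 ± 0.92, and it was not called, so the 2 probes of CENPA disagree.

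OIP5, also known as MIS18-beta, prepares centromeres for new CENPA. It read 2.60, 3.31, 3.40 and 2.15 in control, 2.15, 3.63, 2.42 and 3.19 in oleic acid, 6.04, 4.84, 5.66 and 5.84 in elaidic acid and 4.63, 5.15, 5.14 and 4.54 in stearic acid samples. Control and oleic acid samples overlapped widely, and every elaidic and stearic acid sample lay above them. OIP5 rose by 2.73 ± 0.38 against control (adjusted p = 0.00486) and its change within series A was 2.47 ± 0.45 (adjusted p = 0.0754). ZWINT, which links the outer kinetochore to the checkpoint, read 6.87, 6.98, 7.28 and 7.40 in control, 7.54, 7.85, 7.68 and 7.55 in oleic acid, 9.20, 8.60, 8.99 and 8.44 in elaidic acid and 8.37, 8.16, 8.52 and 8.10 in stearic acid samples. Its groups did not overlap between control, oleic acid and elaidic acid, and its rise against control was 1.67 ± 0.22 (adjusted p = 0.00376; 1.39 ± 0.23 within series A, adjusted p = 0.0549).

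CENPE, a motor of the kinetochore that moves chromosomes to the spindle equator, read 8.89, 8.44, 9.03 and 8.45 in control, 9.23, 9.93, 9.36 and 9.85 in oleic acid, 10.13, 10.46, 9.76 and 10.65 in elaidic acid and 9.19, 9.46, 9.54 and 8.90 in stearic acid samples. Its series A elaidic acid samples were above those of series B, and its stearic acid samples overlapped control and oleic acid. CENPE rose by 1.55 ± 0.26 against control (adjusted p = 0.0174), and the rise within series A was 1.85 ± 0.29 (adjusted p = 0.0398). CENPF, a large kinetochore protein, and SPC25, a subunit of the NDC80 complex that holds microtubules, had changes of 1.01 and 0.72, and neither was called.

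The spindle checkpoint was represented by 1 tested probe. TTK, the checkpoint kinase MPS1, read 4.48, 5.56, 4.84 and 5.41 in control, 5.68, 4.84, 5.27 and 5.25 in oleic acid, 5.66, 5.42, 5.40 and 5.08 in elaidic acid and 5.30, 4.99, 5.57 and 4.79 in stearic acid samples. All 4 groups overlapped, and its change with elaidic acid was 0.32 ± 0.28. BUB1 and BUB1B, further kinases of the checkpoint, were at or below 0 in 4 and 1 samples and were not tested. Their intensities ran from -4.50 to 18.5 for BUB1 and from -3.25 to 17.9 for BUB1B, and the groups overlapped.

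Of the mitotic kinases, AURKA, which matures centrosomes, read 10.32, 9.75, 9.96 and 9.50 in control, 10.19, 10.52, 9.98 and 10.45 in oleic acid, 10.74, 11.39, 10.56 and 11.33 in elaidic acid and 10.27, 10.24, 10.44 and 9.96 in stearic acid samples. Every elaidic acid sample was above every sample of the other groups, and the highest were those of series A. Its change against control, 1.12 ± 0.25 (adjusted p = 0.078) and 1.47 ± 0.26 within series A (adjusted p = 0.0663), was not called. PLK1, which acts on centrosomes, kinetochores and cytokinesis, read 4.86, 4.21, 5.17 and 4.12 in control, 5.85, 5.70, 4.49 and 4.95 in oleic acid, 4.58, 6.01, 5.95 and 6.11 in elaidic acid and 5.98, 6.04, 6.42 and 5.74 in stearic acid samples. Elaidic acid replicate 1 lay within the control range while the other 3 were above it, and the change of 1.07 was not called. NEK2, a kinase that separates centrosomes, was at or below 0 in 1 sample and was not tested; its intensity ran from -0.66 to 21.5.

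The chromosomal passenger complex corrects faulty attachments and acts again in cytokinesis. BIRC5, the survivin subunit, read 5.33, 5.19, 4.66 and 5.004 in control, 5.47, 5.18, 5.37 and 5.12 in oleic acid, 6.92, 6.53, 6.56 and 5.85 in elaidic acid and 6.91, 6.67, 6.93 and 6.05 in stearic acid samples on the probe that was called. All elaidic acid and stearic acid samples lay above all control and oleic acid samples, and BIRC5 rose by 1.42 ± 0.27 (adjusted p = 0.0339; 1.15 ± 0.30 within series A, adjusted p = 0.29). The second BIRC5 probe had a change of 0.41 and was not called. CDCA8, the borealin subunit, read 5.34, 6.38, 6.68 and 6.69 in control, 6.77, 7.10, 6.74 and 5.60 in oleic acid, 8.30, 7.58, 7.85 and 7.37 in elaidic acid and 7.51, 7.98, 7.90 and 7.54 in stearic acid samples. Its elaidic acid samples were above every control and oleic acid sample, at a change of 1.504 that was not called. INCENP, the scaffold, read 8.87, 7.30, 9.55 and 8.94 in control, 8.77, 9.40, 9.24 and 9.74 in oleic acid, 8.42, 8.66, 8.72 and 8.51 in elaidic acid and 7.54, 8.61, 7.94 and 7.95 in stearic acid samples. Its elaidic acid values lay inside the control range, and its change was -0.09. AURKB, the kinase of the complex, had a change of 0.87 that was not called. Its second probe, at or below 0 in 1 sample, was not tested and had intensities from -3.12 to 32.3.

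Of the genes of anaphase, ESPL1, the separase that cuts cohesin, read 7.09, 7.78, 8.10 and 8.58 in control, 8.19, 8.54, 8.06 and 7.03 in oleic acid, 9.58, 9.19, 9.65 and 8.54 in elaidic acid and 8.86, 8.89, 8.97 and 8.93 in stearic acid samples. Elaidic acid replicate 4 lay within the control range and the other 3 above it, with a change of 1.35 ± 0.36 (adjusted p = 0.131). UBE2C, the ubiquitin-conjugating enzyme of the anaphase-promoting complex, had a change of -0.03.

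Genes of chromosome structure were each higher on average. CDCA5, the cohesin protector sororin, read 7.13, 7.32, 7.18 and 7.27 in control, 7.62, 7.65, 7.19 and 7.37 in oleic acid, 9.59, 8.73, 9.47 and 8.55 in elaidic acid and 9.19, 8.85, 9.22 and 8.22 in stearic acid samples. The control samples lay close together, and elaidic acid samples were above every control and oleic acid sample in both slide series. CDCA5 rose by 1.86 ± 0.28 (adjusted p = 0.00942; 1.42 ± 0.28 within series A, adjusted p = 0.087). SMC4, a core subunit of condensin, read 3.37, 4.19, 1.53 and 2.70 in control, 3.70, 3.16, 4.002 and 4.18 in oleic acid, 5.52, 5.46, 4.44 and 4.27 in elaidic acid and 4.09, 4.12, 4.70 and 4.19 in stearic acid samples on its dimmer probe. Every elaidic acid value was above every control value on both SMC4 probes, with changes of 1.97 and 1.66 that were not called. A second CDCA5 probe was at or below 0 in 1 sample, had intensities up to 15.9 and was not tested. SMC2, the partner of SMC4 in condensin, had a change of 0.51 and was not called.

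All 7 tested probes of spindle and midzone genes were higher, by 1.52 to 2.33, and 3 were called. ASPM, which works at spindle poles, read 5.68, 5.33, 5.64 and 4.83 in control, 5.94, 6.99, 6.10 and 5.95 in oleic acid, 7.98, 7.51, 7.84 and 7.48 in elaidic acid and 6.69, 6.84, 7.54 and 6.43 in stearic acid samples. Control samples were the lowest, oleic acid samples lay between them and elaidic acid, and those groups did not overlap. Stearic acid samples overlapped both the oleic acid and the elaidic acid samples. ASPM rose by 2.33 ± 0.30 (adjusted p = 0.00376; 2.12 ± 0.36 within series A, adjusted p = 0.0611). NUSAP1, which bundles spindle microtubules near chromosomes, read 8.64, 9.09, 9.34 and 8.84 in control, 9.53, 10.08, 9.74 and 9.28 in oleic acid, 11.35, 10.69, 10.90 and 10.71 in elaidic acid and 10.32, 10.003, 10.47 and 9.42 in stearic acid samples. Every elaidic acid sample was above every other sample, and NUSAP1 rose by 1.94 ± 0.27 (adjusted p = 0.00595; 1.72 ± 0.32 within series A, adjusted p = 0.0792).

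FAM83D, which brings a kinase to the spindle, read 3.46, 3.51, 4.13 and 3.83 in control, 3.85, 4.74, 4.02 and 4.03 in oleic acid, 6.89, 5.30, 6.45 and 4.78 in elaidic acid and 5.89, 4.99, 5.96 and 5.28 in stearic acid samples. Its series B elaidic acid samples were above its series A ones, and its rise of 2.12 ± 0.40 (adjusted p = 0.0385) was 1.31 ± 0.34 within series A (adjusted p = 0.29). DLG7 read 3.88, 2.67, 4.77 and 4.69 in control, 3.93, 5.32, 5.33 and 5.64 in oleic acid, 6.60, 5.43, 6.43 and 5.91 in elaidic acid and 6.01, 5.75, 6.64 and 5.45 in stearic acid samples. All its elaidic acid samples exceeded all controls, at a change of 2.09 that was not called. TACC3, which steadies spindle fibres with clathrin, read 4.58, 3.26, 5.65 and 4.43 in control, 5.68, 4.89, 5.01 and 4.06 in oleic acid, 6.90, 6.41, 6.38 and 6.14 in elaidic acid and 6.36, 6.46, 6.49 and 5.82 in stearic acid samples. Its elaidic acid samples exceeded all control and oleic acid samples, at 1.98, again not called.

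PRC1, which crosslinks the spindle midzone, read 3.31, 3.53, 3.70 and 4.48 in control, 4.58, 4.86, 3.99 and 4.48 in oleic acid, 6.74, 4.25, 6.55 and 3.55 in elaidic acid and 6.59, 5.04, 6.58 and 4.70 in stearic acid samples. Elaidic acid replicates 1 and 3 (series B) lay beside the highest stearic acid samples, and replicates 2 and 4 (series A) lay within the control range. Stearic acid replicates 2 and 4, also of series B, were much lower than the other stearic acid samples and near the highest oleic acid samples. Its change against control was 1.52 over all samples and 0.15 within series A. TPX2, which activates AURKA on the spindle, had a change of 1.86 that was not called. HMMR, a spindle protein, was at or below 0 in 1 oleic acid sample and was not tested, and its intensity ran from -1.43 to 49.6.

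Of the 3 cytokinesis genes, 1 rose. CEP55, which organises the final cut between daughter cells, read 2.52, 3.20, 4.17 and 3.36 in control, 4.21, 5.09, 4.34 and 3.53 in oleic acid, 7.03, 5.51, 6.58 and 5.35 in elaidic acid and 6.21, 5.01, 5.93 and 4.95 in stearic acid samples. Each elaidic acid sample was above every control and oleic acid sample, with series B above series A, and CEP55 rose by 2.80 ± 0.46 (adjusted p = 0.0162; 2.12 ± 0.49 within series A, adjusted p = 0.182). ECT2, the exchange factor that starts the contractile ring, read 6.39, 5.72, 6.59 and 6.32 in control, 5.43, 5.88, 6.46 and 5.67 in oleic acid, 5.42, 5.58, 5.40 and 6.23 in elaidic acid and 5.30, 5.63, 4.96 and 5.43 in stearic acid samples. ECT2 had the lowest change of all members with elaidic acid, -0.60, which was not called. ANLN, a scaffold of that ring, had a change of -0.35, and the sign turned within series A (0.44 ± 0.48).

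MKI67, the Ki-67 protein used to count dividing cells, read 6.19, 6.13, 6.35 and 6.12 in control, 6.17, 6.62, 6.95 and 6.95 in oleic acid, 7.89, 7.64, 7.82 and 7.53 in elaidic acid and 7.16, 7.14, 7.38 and 7.12 in stearic acid samples. Elaidic acid samples were above all stearic acid samples, which were above all oleic acid and control samples. MKI67 rose by 1.52 ± 0.21 with elaidic acid (adjusted p = 0.00486), and its change within series A was 1.39 ± 0.24 (adjusted p = 0.0621).

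**Figure D2:**
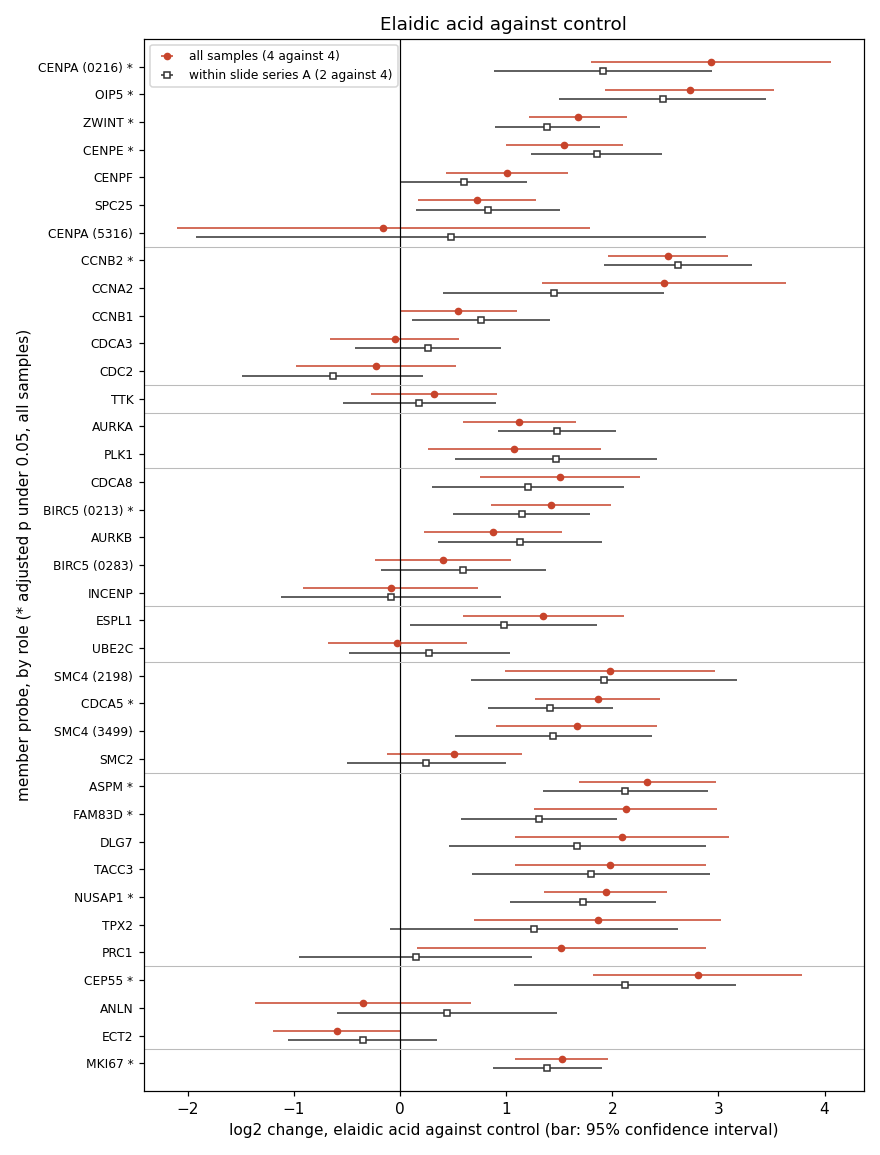
Log2 change of each member probe with elaidic acid against control, as points with 95% confidence intervals, over all samples (red circles, 4 against 4) and within slide series A (open squares, 2 against 4). Stars mark the 12 probes called over all samples; the interval lies above 0 for 26 probes over all samples and for 25 within series A, and the squares of CENPA, CCNA2, FAM83D and PRC1 lie well left of their circles.

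Leaving out each of the 16 samples in turn, CCNB2, ASPM, ZWINT, MKI67, OIP5, NUSAP1 and CDCA5 were called with elaidic acid against control in 16 of 16 fits. CENPE was called in 13, CEP55 in 12, CENPA in 10, FAM83D in 5 and BIRC5 in 4 of the 16.

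**Figure D3:**
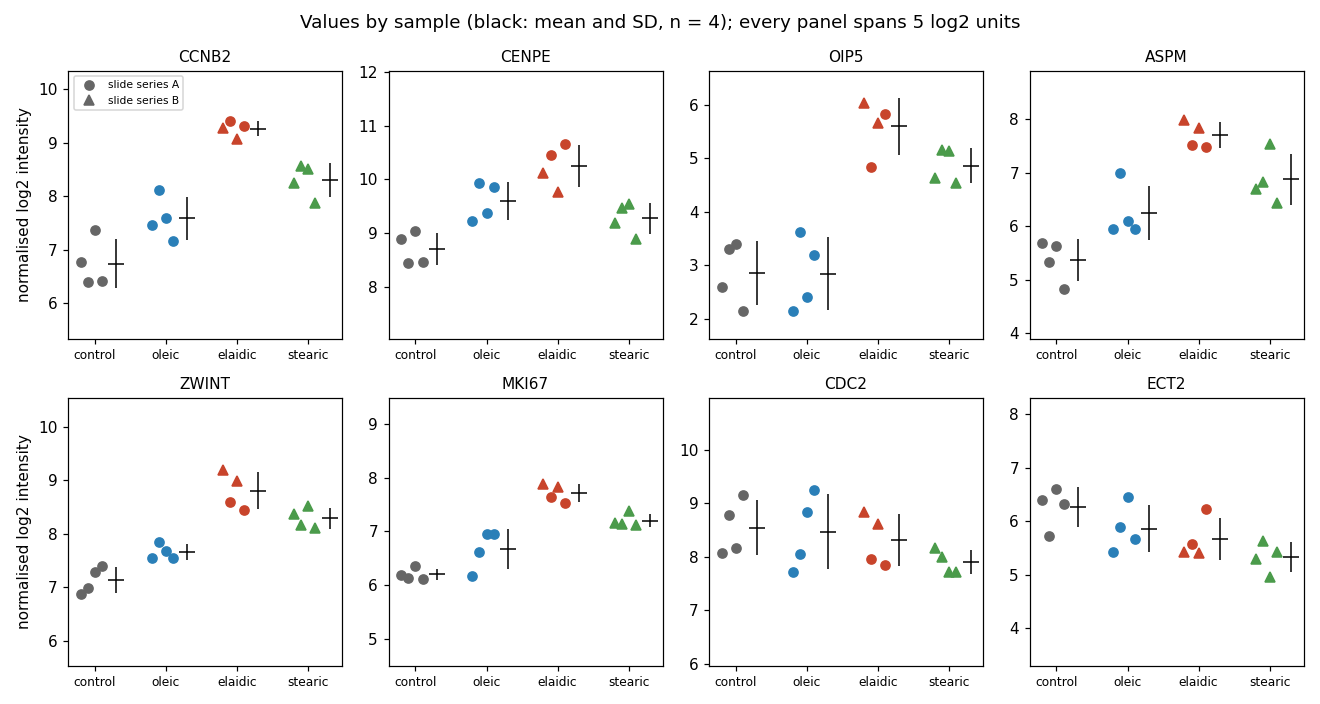
Normalised log2 intensity by sample of 6 called members and 2 that were not called with elaidic acid (CDC2 and ECT2); circles are samples of slide series A, triangles of series B, black marks the mean and SD (n = 4), and each panel spans 5 log2 units. Elaidic acid samples of both series stand above control for CCNB2, CENPE, OIP5, ASPM, ZWINT and MKI67, and the groups overlap for CDC2 and ECT2.

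With oleic acid, the cis isomer, no member was called, and 0.0% of all probes were, with or without the slide series as a block. Both groups lie in series A, so no difference of slide series lies between them. The error of the fit is still pooled over all 16 samples of both series. With the block, 8 members and 759 of all probes had an unadjusted p under 0.05 in limma. Of the 37 members 32 had a higher mean than in control, with a median log2 change of 0.40 against 0.01 over all probes. In limma 7 members (CENPE 0.89, ASPM 0.87, CCNB2 0.84, DLG7 1.05, NUSAP1 0.68, ZWINT 0.52 and MKI67 0.47) had an unadjusted p under 0.05, as had 602 of all probes. Every oleic acid sample was above every control sample for 3 members, CENPE, ZWINT and ASPM (0.606% of all probes). OIP5 was at -0.02 (95% interval -0.82 to 0.78) and the brighter CENPA probe at -0.07 (-1.20 to 1.06), close to control but with wide intervals.

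Between the 2 isomers, 6 members were called, all higher with the trans form, where 0.318% of all probes were called. CENPA (log2 difference 3.001, adjusted p = 0.0269), OIP5 (log2 difference 2.75, adjusted p = 0.00985), CCNB2 (3.20-fold, adjusted p = 0.0183), CDCA5 (3.09-fold, adjusted p = 0.0221), ZWINT (2.22-fold, adjusted p = 0.0378) and MKI67 (2.07-fold, adjusted p = 0.0446) passed. The log2 differences of CENPA and OIP5, dim in oleic acid samples, were 2.28 and 1.48 with the offset of 16. Leaving out each of the 16 samples in turn, OIP5 was called in 15 fits, CCNB2 and CDCA5 in 12, CENPA in 11, ZWINT in 4 and MKI67 in 1. Of the 37 members 30 were higher with a median log2 difference of 1.04 (-0.13 over all probes). This comparison and that against control share the elaidic acid samples. Within series A the 6 log2 differences were 1.98, 2.49, 1.77, 1.18, 0.86 and 0.91 in the same order, 32 of 37 members were higher, the median was 0.90, and 0.0218% of all probes but no member was called (18 members had an unadjusted p under 0.05). Both series A elaidic acid samples were above all oleic acid samples for 21 members (6.29% of all probes) and below them for 1, INCENP. The count of calls was 0 when elaidic acid replicate 1 was left out, 1 when elaidic acid replicate 3, oleic acid replicate 3 or oleic acid replicate 4 was, and 3 when oleic acid replicate 1 was. It was 21 with array weights, 2 with values floored at 1, and 0 without normalisation, with only the 2 groups in the fit or with replicate number as a block.

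With stearic acid, 20 members (54.1%) were called against control, 19 higher and 1 lower, in a comparison where 29.8% of all probes were called. The shares were similar for the reference gene probes (54.5%) and hepatocyte probes (56.2%) described below, so the member share is not particular to mitotic genes. The elaidic acid comparison has the same 4 control samples, so the calls of both rest in part on them. Higher were CENPA (3.13 ± 0.53), CEP55 (2.21 ± 0.46), OIP5 (1.998 ± 0.38), FAM83D (1.80 ± 0.40), CDCA5 (1.65 ± 0.28), BIRC5 (1.60 ± 0.27), CCNB2 (1.56 ± 0.27), ASPM (1.503 ± 0.30), ZWINT (1.16 ± 0.22), NUSAP1 (1.08 ± 0.27) and MKI67 (1.001 ± 0.21). The CENPA value is from its brighter probe and the BIRC5 value from the probe called with elaidic acid. The second BIRC5 probe had means of 5.27 with stearic acid and 5.24 in control, and was not called. Called as well were CCNA2 (2.53 ± 0.54), DLG7 (1.97 ± 0.48), PRC1 (1.98 ± 0.64), TACC3 (1.81 ± 0.42), CDCA8 (1.46 ± 0.36), PLK1 (1.46 ± 0.38), the dimmer SMC4 probe (1.33 ± 0.47) and ESPL1 (1.03 ± 0.36). The limit of dim controls given above holds here too for CENPA, CEP55, OIP5, FAM83D, CCNA2, PRC1, DLG7 and SMC4. Leaving out each sample in turn, PRC1 was called in 11 of 16 fits, ESPL1 in 8, SMC4 in 7 (at 0.85 without control replicate 3) and the other 16 of these in all 16. CENPE was at 0.57 ± 0.26 and was not called (adjusted p = 0.101). ECT2 was lower, at -0.93 ± 0.28 (adjusted p = 0.0249), with every stearic acid sample below every control sample; it was not called under median scaling, cyclic loess or no normalisation, and was called in 12 of the 16 fits that left out 1 sample. Every stearic acid sample was above every control sample for 20 members (18.7% of all probes). The median log2 change of the members was 1.03, against -0.18 over all probes.

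The stearic acid and control arrays share no slide series. When the slide series was taken as a block, which carries the comparison through the elaidic acid samples, no member was called (0.0% of all probes; 7 members had an unadjusted p under 0.05), 31 of 37 were higher and the median was 0.59. In that fit CCNB2 was at 1.75 ± 0.46, PLK1 at 2.25 ± 0.63 and CENPE at 1.18 ± 0.41, while PRC1 turned to -0.77 ± 0.73, FAM83D was at 0.17 ± 0.49 and CCNA2 at 0.46 ± 0.69.

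Against oleic acid, 12 members were called higher and 1 lower with stearic acid. This was 35.1% of the members, below the 39.5% of all probes that were called. The higher ones were CENPA (3.20), OIP5 (2.02), CCNA2 (2.01), CDCA5 (1.41), TACC3 (1.37), FAM83D (1.37), BIRC5 (1.35), CEP55 (1.24), CDCA8 (1.18), ESPL1 (0.96), CCNB2 (0.72) and ZWINT (0.63), as log2 differences. CENPA and BIRC5 are the same probes as against control. The second BIRC5 probe went the other way, with means of 5.27 with stearic acid and 5.67 with oleic acid, and was not called. Leaving out each sample in turn, ESPL1 was called in 6 of 16 fits, CCNB2 in 7, CEP55 in 9, ZWINT in 11, TACC3 in 13, and CDCA8, FAM83D and INCENP in 14. INCENP was lower at -1.28 ± 0.39 (adjusted p = 0.0205), a call that was lost without normalisation. Of the 37 members 25 were higher, with a median of 0.53 against -0.21 over all probes. With the slide series as a block no member was called (0.0% of all probes; 3 members had an unadjusted p under 0.05), 23 of 37 were higher and the median was 0.07. The count of calls was 6 without stearic acid replicate 1, stearic acid replicate 3 or oleic acid replicate 4.

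Between the trans and the saturated acid no member was called, where 0.397% of all probes were, and 9 members had an unadjusted p under 0.05 in limma. Of the 37 members 30 were higher with elaidic acid with a median log2 difference of 0.38 (0.07 over all probes), but without normalisation 17 were and the median was -0.04. Omitting the normalisation shifted the median of all probes to -0.28 here, and to 0.26 for stearic acid against control and 0.39 against oleic acid. The largest differences were in CENPE (0.98, 95% interval 0.42 to 1.53), CCNB2 (0.96, 0.39 to 1.53), AURKB (0.91, 0.26 to 1.56), NUSAP1 (0.86, 0.28 to 1.44), SMC4 (0.83, 0.07 to 1.59), ASPM (0.83, 0.19 to 1.47) and AURKA (0.78, 0.25 to 1.31). On the probe called against control BIRC5 was at -0.18 (-0.74 to 0.39), and CDCA8 was at 0.04 (-0.71 to 0.80). These intervals leave room for a difference either way. The second BIRC5 probe went the other way, with means of 5.65 with elaidic acid and 5.27 with stearic acid.

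Within series B, where 2 elaidic acid samples stand beside all 4 stearic acid samples, 34 of 37 members (91.9%) were higher with elaidic acid, against 51.9% of all probes, with a median of 0.66. Both elaidic acid samples were above all stearic acid samples for 19 members (11.1% of all probes) and below them for 1, the dimmer CENPA probe. No member was called with the block, when 0.00436% of all probes were, and 12 had an unadjusted p under 0.05. CEP55 (1.28 ± 0.49), FAM83D (1.14 ± 0.35), NUSAP1 (1.07 ± 0.32), SMC4 (1.05 ± 0.44, brighter probe) and ASPM (1.03 ± 0.36) had the largest differences there among members with an interval above 0.

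Ordered by group mean, elaidic acid was the highest group for 23 of 37 members (62.2%, against 9.58% of all probes) and control the lowest for 27 (73.0%, against 16.9%). Within series A, 28 members (75.7%) followed the order control, oleic acid, elaidic acid, against 20.4% of all probes. The mean log2 level over the 37 probes was 6.16 ± 0.13 in control, 6.53 ± 0.06 in oleic acid, 7.43 ± 0.20 in elaidic acid and 7.07 ± 0.23 in stearic acid samples (SD, n = 4). By sample these means were 6.11, 6.05, 6.35 and 6.14 in control, 6.51, 6.62, 6.50 and 6.48 in oleic acid, 7.66, 7.33, 7.53 and 7.22 in elaidic acid and 7.12, 7.02, 7.35 and 6.79 in stearic acid samples. Control, oleic acid and elaidic acid samples did not overlap, and the stearic acid samples reached into the elaidic acid range. Within elaidic acid, 23 of 37 members were higher in the samples of series B than in those of series A, with a median difference of 0.42. The others were lower in series B, among them AURKA (-0.70), CENPE (-0.61) and CCNB2 (-0.18). The share over all probes was not computed, so whether this difference is particular to the members was not tested.

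**Figure D4:**
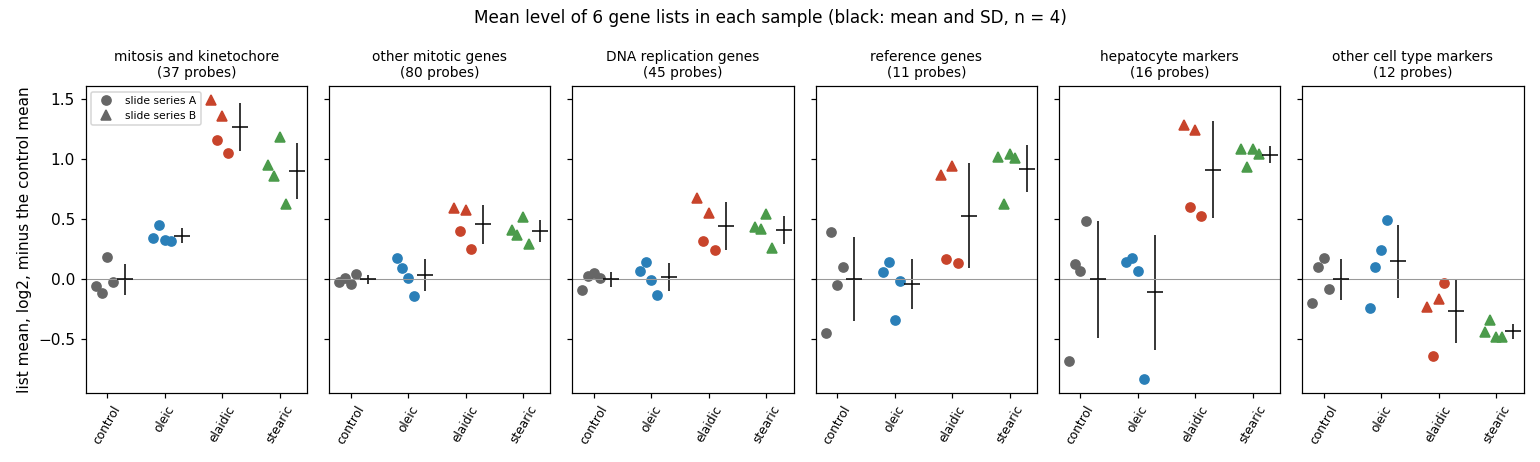
Mean log2 level of 6 gene lists in each sample, minus the list's control mean; circles are samples of slide series A, triangles of series B, and black marks the mean and SD (n = 4). For the mitosis and kinetochore list both slide series of elaidic acid lie above all oleic acid samples. The same holds for the other mitotic, DNA replication and hepatocyte lists. For the reference and hepatocyte lists the elaidic acid samples of series B lie with stearic acid while those of series A lie lower.

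Genes outside the list moved in the same comparisons. A list of 106 other mitotic genes, such as further centromere proteins, anaphase-promoting complex subunits and cohesins, had 80 tested probes, of which 59 were higher with elaidic acid than in control and 3 were called, all upward. These were LMNB1, the nuclear lamin B1 (1.78 ± 0.27), TROAP, a spindle-associated protein (1.79 ± 0.32), and PKMYT1, the kinase that inhibits CDK1 (1.18 ± 0.22). The median of this list was 0.37, and within series A it was 0.27 with no call (11 had an unadjusted p under 0.05 in limma). With oleic acid 39 of the 80 were higher than in control, with a median of -0.01 and no call (2 had an unadjusted p under 0.05). LMNB1 was also the 1 call between elaidic and oleic acid, at 1.42 ± 0.27.

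With stearic acid 26 of these 80 probes (32.5%) were called against control, 18 higher and 8 lower, a share near the 29.8% of all probes. The most changed were H2AFZ, the histone H2A.Z (3.33 ± 0.43), 1 of 2 probes of ANAPC11, a subunit of the anaphase-promoting complex (3.01 ± 0.47), and MAD1L1, a checkpoint protein (2.48 ± 0.39), all higher. MYBL2, which encodes the activator B-MYB, was lower at -1.83 ± 0.38. None of these was called with the slide series as a block (9 had an unadjusted p under 0.05). Against oleic acid 35 (43.8%) were called, 24 higher and 11 lower with stearic acid, beside 39.5% of all probes, and the called log2 differences ran from MYBL2 at -1.70 ± 0.38 to H2AFZ at 3.13 ± 0.43.

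DNA replication genes, which act before mitosis, had 45 tested probes, of which 29 were higher with elaidic acid than in control and 5 were called upward, with a median of 0.33 (0.21 and 1 call within series A). Other measures moved as well. A set of 11 reference gene probes, used as standards in expression work, had a median change of 0.52 with elaidic acid and 1.03 with stearic acid, and 0.31 and 0.12 with the slide series as a block. Hepatocyte genes had medians of 0.86 and 0.99 on 16 probes, and 0.41 and 0.35 with the block. The part of these shifts in the members' changes was not tested.

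Markers of other cell types (blood, endothelium, fibroblasts and muscle) had 12 tested probes, of which 4 were higher with elaidic acid and none was called (1 had an unadjusted p under 0.05 in limma). With stearic acid 2 of the 12 were called lower than control, DES (-0.86 ± 0.29, adjusted p = 0.0399) and COL1A2 (-1.26 ± 0.24, adjusted p = 0.00308), and 4 were called lower than with oleic acid. None was called in these 2 comparisons with the slide series as a block (2 and 1 had an unadjusted p under 0.05 in limma). The other 4 of their 16 probes were at or below 0 in at least 1 sample. Their mean level per sample ran from 5.78 to 6.16 in control, 5.75 to 6.47 with oleic acid, 5.34 to 5.95 with elaidic acid and 5.50 to 5.64 with stearic acid. CD14 was the brightest, with a mean of 10.45 over all samples and a change of 0.15.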

How the data were processed

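Log2 expression is computed here from the deposited table, which gives 1 intensity per probe and sample on a linear scale. Per the labels, each sample had 2 technical replicate arrays; the background method and how the authors joined the replicates are not given in the sources used here. Background appears subtracted, since 3.31% to 6.24% of the values of a sample are at or below 0, and the deposited intensity was not scaled between samples. Gene symbols came from the platform table.

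Of 30968 probes, 8029 (25.9%) had no positive value in 1 sample or more and were dropped; the other 22939 were taken to log2 and quantile normalised. The 6 comparisons were two-sided tests in R 4.3.3, using lmFit and eBayes of limma 3.58.1 over all 16 samples, with p adjusted by Benjamini-Hochberg over all probes and a threshold of 0.05. Slide series was a block in an alternative fit. Figures used matplotlib 3.10.9 in Python 3.11.15. The script was tested on simulated data. Precision is limited by the number of arrays.

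The members and lists were chosen with earlier results of these data known. Values by sample are given for members called in any comparison, for the member of smallest p with elaidic acid in each role, and for both probes of a member whose probes differ in sign; other members are given by range and count, and other mitotic genes where called. Alternatives covered normalisation, dim probes, probes per gene, blocks, variance models, array weights, fits of 2 groups and leaving out each sample.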

Additional observations from a re-analysis of the deposited data

Results flagged for a closer look

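Each member was checked for 1 sample standing apart from the other 3 of its group, by Dixon's criterion, in 148 sets of 4 samples. Chance alone flags about 1 in 20 sets, and 7 were found. TPX2 was low in control replicate 1, at a log2 value of 7.006 against 8.948 to 9.12 in the other controls. CCNA2 was high in control replicate 4, at 4.288 against 3.238 to 3.386. ASPM was high in oleic acid replicate 2, at 6.988 against 5.943 to 6.096. PLK1 was low in elaidic acid replicate 1, at 4.58 against 5.953 to 6.111, although 2 of the 4 elaidic acid samples, replicates 1 and 3, share a slide series. In stearic acid replicate 3, MKI67 stood at 7.379 against 7.124 to 7.157 and the dimmer SMC4 probe at 4.702 against 4.09 to 4.187. AURKB was low in stearic acid replicate 4, at 7.736 against 8.226 to 8.297.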

How the results depend on the processing

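The direction of the members' median and the count of calls were recomputed under each alternative. With elaidic acid against control, the calls numbered 12 and became 2 with the slide series block, 25 with array weights, and 0 without normalisation or with only the 2 groups fitted (26 and 24 members at an unadjusted p under 0.05). The median of 1.504 was 1.12 with values floored at 1, 0.94 with an offset of 16, 1.24 without the dimmest 50% and 1.26 with the slide series block. For elaidic against oleic acid, calls were 2 with the floor, 21 with array weights, and 0 without normalisation, with the slide series block, with the replicate block or with only the 2 groups (22, 18, 22 and 23 at an unadjusted p under 0.05). Medians were 1.25 without normalisation, 0.80 with the floor, 0.64 with the offset and 0.76 without the dimmest 50%. For elaidic against stearic acid, 1 member was called without the dimmest 50% and 4 with array weights, and the median was -0.038 without normalisation and 0.66 with the slide series block. For oleic acid against control the median was 0.22 without normalisation and 0.23 with the offset, with 0 calls throughout in limma (1 to 10 members at an unadjusted p under 0.05).

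For stearic acid against control, calls were 9 without the dimmest 50% and 0 with the slide series block (7 at an unadjusted p under 0.05). Medians were 1.58 without normalisation, 0.55 with the offset, 0.65 without the dimmest 50% and 0.59 with the slide series block, where PRC1 reversed to -0.77. For stearic against oleic acid, calls were 8 without the dimmest 50%, 0 with the slide series block (3 at an unadjusted p under 0.05) and 20 with array weights. Medians were 1.23 without normalisation and 0.069 with the block, where CEP55 (-0.14), FAM83D (-0.26) and CCNA2 (-0.069) reversed. Fewer probes are tested without the dimmest 50%, and otherwise the cause was not tested.

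Leaving out each sample in turn, calls ranged from 7 to 14 for elaidic acid against control, 0 to 9 against oleic acid, 16 to 22 for stearic acid against control and 6 to 14 against oleic acid, and were 0 in the other 2 comparisons. The medians ranged from 1.33 to 1.59, 0.88 to 1.13, 0.94 to 1.11 and 0.47 to 0.61 in that order, 0.33 to 0.44 for oleic acid against control and 0.29 to 0.48 for elaidic against stearic acid. Pairing by replicate number was not used in the main fit: 7 of 24 correlations of same-numbered samples were over 0.1, in a range of -0.46 to 0.36. Differently numbered samples were not compared, and the elaidic acid replicates also differ in slide series, so pairing is not excluded. With the replicate block, calls were 9 for elaidic acid against control, 18 and 10 for stearic acid against control and oleic acid. Dim probes such as both BUB kinases gave no tested value.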
